A study of Canis lupus familiaris with 25 samples.

Results

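Polycomb and DNA methylation genes were described in simple mammary carcinomas of dogs and in non-neoplastic mammary gland. The genes were EZH2, SUZ12, EED, DNMT1, DNMT3A, DNMT3B, UHRF1 and HELLS, and their probe sets were those of the canine array that name exactly 1 of them. This gave 10 of 43035 probe sets, for 7 of 15115 named genes; DNMT3B was named by no probe set in the annotation used here and has no values. Of the 7 genes, 6 passed the filter on low values (a value over log2 4 on 6 or more of the 22 arrays of paired dogs), and UHRF1 did not.

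Total RNA of 25 specimens was hybridised to 1 array each: 13 primary carcinomas with lymph node metastasis at resection, and 12 non-neoplastic glands. The arrays came from 14 pet dogs of several breeds, aged 9 to 16 years, and 11 dogs gave both tissues; only carcinoma was measured in dogs 1 and 9, and only gland in dog 8. By the labels all 13 carcinomas were negative for ERA, 11 were positive and 2 negative for HER-2, tumours measured 0.5 to 5 cm and postoperative survival was 1 to 9 months, given for 12 dogs. No treatment is named. Sections had been chosen for 70% tumour or mammary epithelial cells, and the gland came from a dog with a tumour, so it is not tissue of a healthy animal (dog 8 had no array of its tumour).

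Polycomb repressive complex 2 places methyl groups on a lysine of histone H3, a mark of silenced genes. EZH2 is its catalytic subunit, SUZ12 holds the complex together, and EED binds the mark and stimulates the enzyme. DNMT1 copies DNA methylation onto the new strand after replication, UHRF1 brings DNMT1 to hemimethylated DNA, DNMT3A and DNMT3B methylate unmarked sites, and HELLS is a chromatin remodeller that DNA methylation depends on. Several of these genes are transcribed mainly in dividing cells, which is the reason to set them against the genes of mitosis.

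In the carcinomas 4 of the 6 tested genes were higher than in the gland of the same dog: HELLS, EZH2, SUZ12 and DNMT1. EED and DNMT3A did not pass the test, and none was lower. The test was limma on the log2 values with the dog as a block, adjusted by Benjamini-Hochberg over all 21553 tested probe sets, with a call at an adjusted p under 0.05. At this threshold 18.4% of the 8885 genes tested were called higher and 11.1% lower, 29.6% in all. EZH2 and DNMT1 were higher in every paired dog, 2 of 6 members, as were 5.71% of all genes. No member had every carcinoma above every gland, a pattern found in 0.236% of genes. The median difference of the 6 genes was 0.78 on the log2 scale, against 0.10 over all genes tested. In bulk tissue, fewer cells of a type and less RNA per cell cannot be told apart.

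**Figure D1:**
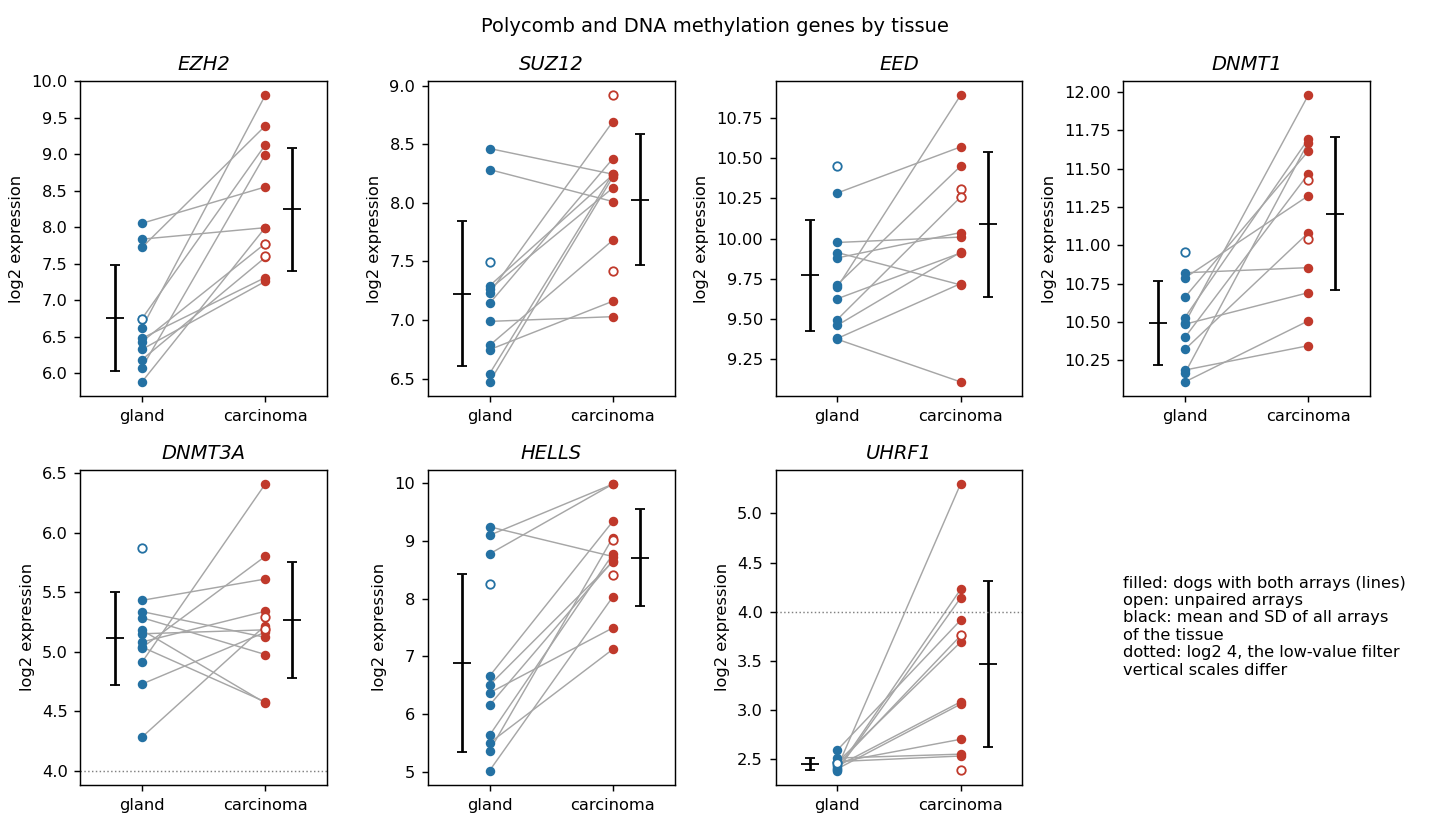
Log2 expression of 7 genes (vertical axes, which differ in scale) in gland and carcinoma. Points are arrays, lines join the tissues of 1 dog, open points are unpaired arrays, and black marks are the mean and SD over 12 glands or 13 carcinomas. EZH2 and DNMT1 lines rise in 11 of 11 dogs, HELLS lines in 10, and the UHRF1 probe set exceeds log2 4 (dotted) in 3 carcinomas.

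Among the subunits of the Polycomb complex, EZH2 differed most. Its log2 level ran from 5.88 to 8.05 in the glands (median 6.55) and from 7.26 to 9.80 in the carcinomas (median 7.99). The highest glands were those of dogs 3 (8.05), 14 (7.84) and 7 (7.72), which overlapped the carcinomas, whereas 9 of 12 glands lay below the lowest carcinoma. The within-dog difference was 1.58 ± 0.98 (SD, n = 11 dogs), 3.00-fold with a 95% interval of 1.98 to 4.53, and it was above 0 in 11 of 11 dogs (limma adjusted p = 0.00173). It ranged from 0.16 in dog 14 to 3.18 in dog 6.

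SUZ12 ran from 6.47 to 8.46 in the glands (median 7.19) and from 7.03 to 8.92 in the carcinomas (median 8.22). The tissues overlapped, with the glands of dogs 3 (8.46) and 14 (8.28) above the carcinoma of the same dog. The difference was 0.80 ± 0.73, 1.74-fold, and 9 of 11 dogs were higher (limma adjusted p = 0.0152). Among the 9 carcinomas whose title ends in b, a suffix the labels do not explain, SUZ12 differed by 0.69 and was not called (adjusted p = 0.0649).

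EED spanned 9.37 to 10.45 in the glands (median 9.70) and 9.10 to 10.89 in the carcinomas (median 10.04). The ranges overlapped, with 3 of 13 carcinomas above the highest gland and the lowest carcinoma below every gland. The difference was 0.35 ± 0.43, with a 95% interval of 0.04 to 0.65, and it was not called (limma adjusted p = 0.0794), although 9 of 11 dogs were higher.

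On the log2 scale of the array EZH2 rose more than either partner. Probe sets can differ in how they scale a change, as the 2 of DNMT1 gave differences of 0.75 and 1.07. The comparisons of pairs therefore hold for the array values only. It exceeded SUZ12 in its within-dog difference by 0.78 ± 0.83 and EED by 1.24 ± 1.14, each in 9 of 11 dogs (exact 2-sided sign-flip test, p = 0.0107 and 0.00684, adjusted p = 0.0215 for both over 4 pairs). SUZ12 and EED differed by 0.46 ± 0.91 (exact p = 0.130, adjusted p = 0.130), which does not show that they changed equally. Without dog 3 or dog 14 this pair passed too (lowest adjusted p = 0.0469).

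DNMT1, the maintenance methyltransferase, was measured by 2 probe sets. The brighter ran from 10.11 to 10.95 in the glands (median 10.49) and from 10.35 to 11.98 in the carcinomas (median 11.32), and 9 of 13 carcinomas lay above the highest gland. Its difference was 0.75 ± 0.52, 1.68-fold, higher in 11 of 11 dogs (limma adjusted p = 0.00436), from 0.03 in dog 14 to 1.504 in dog 4. The second probe set differed by 1.07 ± 0.74, higher in 9 of 11 dogs (limma adjusted p = 0.00405), and correlated with the first at r = 0.944 across the carcinomas and 0.724 across the glands. Both therefore gave a call in the same direction.

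DNMT3A, a de novo methyltransferase, was the faintest tested member, at 4.28 to 5.87 in the glands (median 5.12) and 4.57 to 6.41 in the carcinomas (median 5.19). The tissues overlapped almost entirely. The difference was 0.23 ± 0.65, with a 95% interval of -0.21 to 0.66 (limma adjusted p = 0.412), and 7 of 11 dogs were higher. The carcinoma of dog 6 stood highest at 6.41, and without this dog the difference was 0.10. As array values DNMT1 rose more than DNMT3A by 0.52 ± 0.69, in 8 of 11 dogs (exact sign-flip p = 0.0332, adjusted p = 0.0443), a call that was lost without dog 2, 4, 5, 7, 12 or 13 (highest adjusted p = 0.0885). Their probe sets lie far apart in brightness, which also limits this comparison.

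HELLS, the remodeller, had the widest range of the 6 tested members in the glands. Its glands ran from 5.02 to 9.24 (median 6.43), with those of dogs 14 (9.24), 7 (9.10), 3 (8.77) and 8 (8.26) well above the other 8, which lay at or below 6.66. The carcinomas ran from 7.12 to 9.99 (median 8.73), and 8 glands lay below the lowest of them. The difference was 1.96 ± 1.23, 3.88-fold with a 95% interval of 2.34 to 6.44, and 10 of 11 dogs were higher (limma adjusted p = 0.00168). The exception was dog 14, where the carcinoma was 0.52 below the gland (difference -0.52).

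UHRF1 had 3 probe sets, of which 2 stayed below log2 2 on every array and carry no information on its level. The third lay between 2.39 and 2.60 in all 12 glands and between 2.40 and 5.30 in the carcinomas (median 3.69). It exceeded log2 4 in the carcinomas of dogs 10 (5.30), 4 (4.23) and 11 (4.14) and in no gland. Values of this size lie near the floor of the normalized scale, so no mean difference is given. In each of the 11 paired dogs the carcinoma value was the higher one, as in 5.71% of the genes tested. In dogs 13 and 14 it was higher by only 0.04 and 0.06, beside an SD of 0.058 over the glands. The direction in those dogs is therefore not informative. The filter left UHRF1 out of the main test.

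Whether the members follow cell division was asked with a mitosis score, the mean log2 value of 33 tested mitosis genes, none of them a member. The score ran from 4.22 to 6.98 in the glands (median 4.95) and from 6.07 to 9.70 in the carcinomas (median 8.33), and its within-dog difference was 2.78 ± 1.49, above 0 in 11 of 11 dogs. The glands of dogs 14 (6.98), 3 (6.74), 7 (6.51) and 2 (6.00) scored highest, and dog 14 had the smallest difference (0.20). Since the tissues differ, correlations were taken within the carcinomas, within the glands and over the within-dog differences, with Pearson's r, Spearman's rho and permutation p-values adjusted over the 18 relations. The 3 sets share arrays and the score comes from the same arrays as the members, so they are not independent.

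**Figure D2:**
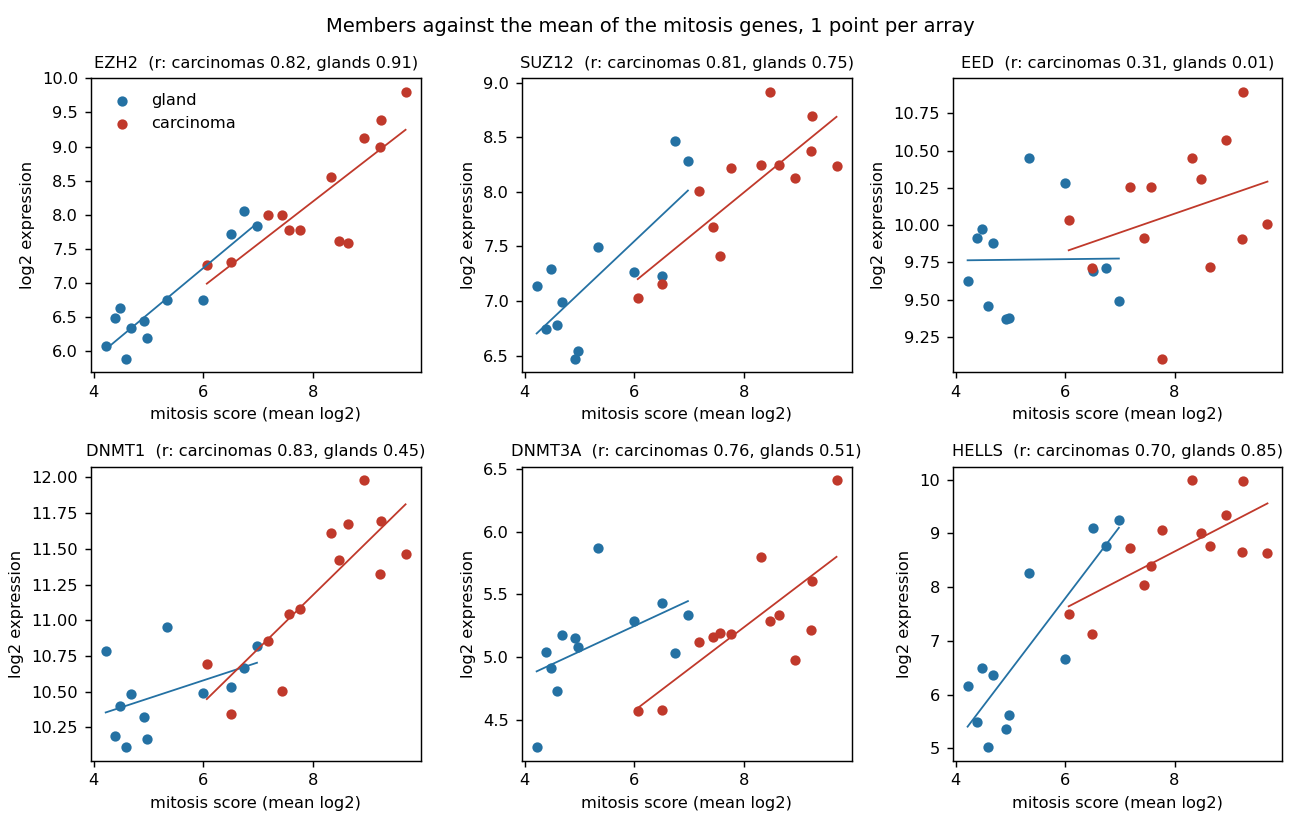
Log2 expression of 6 genes (vertical axes) against the mitosis score (horizontal axis, mean log2 of 33 genes), 1 point per array, with a least-squares line per tissue. EZH2 has r = 0.823 in the 13 carcinomas and 0.914 in the 12 glands, whereas the EED gland line is flat (r = 0.012).

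EZH2 followed the mitosis genes in the carcinomas, the glands and the differences. It correlated with the score at r = 0.823 in the carcinomas (rho = 0.753, permutation p = 0.00063, adjusted p = 0.00283), at 0.914 in the glands (rho = 0.783, permutation p = 0.00016, adjusted p = 0.00144) and at 0.909 over the differences (rho = 0.873, permutation p = 0.00013, adjusted p = 0.00144). Without the 2 values farthest from the median score, r was 0.769, 0.821 and 0.820. Only 1.20%, 0.484% and 0.574% of all tested genes had an r at least as high, while the median r over all genes was 0.01, 0.04 and 0.01. Within the 8 glands with the lowest scores, r was 0.424.

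DNMT1 passed in the carcinomas, and HELLS by r in all 3 sets. DNMT1 correlated at r = 0.831 in the carcinomas (rho = 0.824, permutation p = 0.00048, adjusted p = 0.00283) and at 0.749 without the 2 farthest, but at 0.453 in the glands (permutation p = 0.140, adjusted p = 0.168) and at 0.487 over the differences (permutation p = 0.131, adjusted p = 0.168), where its rho was 0.618 (adjusted permutation p = 0.0780). These are values of the brighter DNMT1 probe set, and no correlation with the score was computed for the second. With both averaged, the DNMT1 slope on the score over the differences was 0.27, against 0.17 for the brighter alone. In the glands it was 0.19 against 0.13. Neither averaged slope was called (limma adjusted p = 0.270 and 0.334). HELLS correlated at r = 0.853 in the glands (rho = 0.748, permutation p = 0.00164, adjusted p = 0.00468) and at 0.731 without the 2 farthest, the glands of dogs 3 and 14. In the carcinomas its r of 0.697 (permutation p = 0.00758, adjusted p = 0.0152), with a rho of 0.549 (adjusted permutation p = 0.0780), dropped to 0.367 without dogs 5 and 13. These are the 2 carcinomas with the lowest scores, and leaving them out also narrows the range of the score, which by itself lowers r. Over the differences the HELLS r was 0.643 (adjusted permutation p = 0.0492).

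The slope of each member on the score was also set side by side between tissues, in a test of the difference added after the data were seen. The DNMT1 slope was larger in the carcinomas by 0.28 (95% interval 0.05 to 0.52) and that of HELLS smaller by 0.70 (slope difference -0.70, interval -1.29 to -0.11). Neither passed with adjustment over all probe sets (limma interaction, adjusted p = 0.569 for both), so the tissues are not shown to differ.

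SUZ12 correlated at r = 0.806 in the carcinomas (rho = 0.780, permutation p = 0.00104, adjusted p = 0.00374), 0.750 in the glands (rho = 0.552, permutation p = 0.00487, adjusted p = 0.0110) and 0.692 over the differences (adjusted permutation p = 0.0305). By rank the gland relation did not pass (adjusted permutation p = 0.0864). The gland value dropped to 0.357 without the glands of dogs 3 and 14, those with the highest scores. Leaving them out also narrows the range of the score, which by itself lowers r. How far the gland relation rests on them is therefore not known. The carcinoma value was 0.583 without dogs 5 and 13.

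DNMT3A, which did not differ by tissue beyond its spread, still correlated with the score within the carcinomas (r = 0.759, rho = 0.747, permutation p = 0.00182, adjusted p = 0.00468), and at 0.566 without dogs 5 and 13. Its carcinoma slope of 0.33 was not called over all probe sets (limma adjusted p = 0.207), and was 0.24 without dog 6. Its gland r of 0.514 did not pass (permutation p = 0.0895, adjusted p = 0.124), while its rho of 0.671 did (adjusted permutation p = 0.0412). In the 8 glands with the lowest scores, a subset added after the data were seen, its r was 0.870. The other members had an r there from 0.052 (SUZ12) to 0.498 (HELLS). The DNMT3A slope in these 8 glands was not called (limma adjusted p = 0.443). Over the differences r was 0.702 (adjusted permutation p = 0.0297) and 0.540 without dogs 6 and 14, and the rho of 0.600 did not pass (adjusted permutation p = 0.0780). Dogs whose mitosis genes rose most, dogs 6 and 10, had the largest DNMT3A differences, at 1.498 and 0.94.

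EED passed in none of these sets. Its r was 0.311 in the carcinomas (permutation p = 0.305, adjusted p = 0.343), 0.012 in the glands (permutation p = 0.971, adjusted p = 0.971) and -0.294 over the differences (permutation p = 0.381, adjusted p = 0.404). In the carcinomas 21.4% of all genes had an r at least as high, and in the glands 51.9%.

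**Figure D3:**
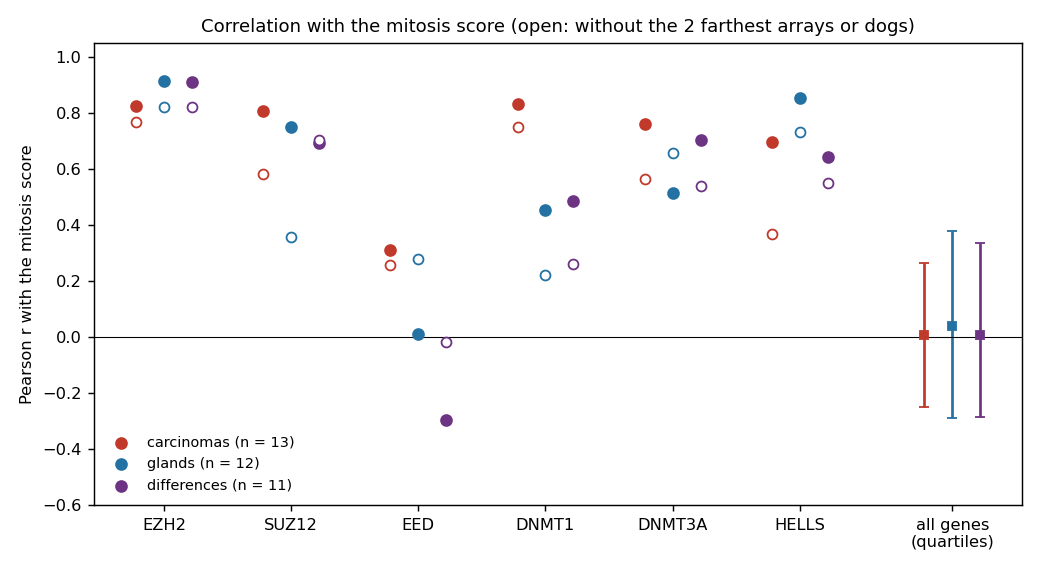
Pearson r with the mitosis score (vertical axis) for 6 genes in the 13 carcinomas, 12 glands and 11 within-dog differences. Filled points use all values, open points leave out the 2 farthest, and squares with bars at the right are the median and quartiles of r over all genes tested. EZH2 lies at 0.823 to 0.914 with all values, and EED near the median of all genes in the glands.

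Fitted as slopes over all probe sets, fewer of these relations passed. In the carcinomas EZH2 rose by 0.62 and DNMT1 by 0.38 per log2 unit of the score (limma adjusted p = 0.0332 and 0.0424), 2 of 6 members against 1.49% of all genes. In the glands EZH2 (0.67) and HELLS (1.34) passed (limma adjusted p = 0.00707 and 0.0184), against 0.878% of genes, and over the within-dog differences EZH2 alone (0.60, limma adjusted p = 0.0137), against 1.27%. The carcinoma calls lay close to the threshold. EZH2 lost its call there without dog 3, 5, 6, 7, 9, 10, 11, 13 or 14 (highest adjusted p = 0.146) and DNMT1 without dog 1, 2, 3, 4, 5, 7, 9, 11, 13 or 14 (highest adjusted p = 0.177), although the slopes stayed at 0.54 to 0.68 and 0.34 to 0.43. In the glands EZH2 lost its call without dog 3 or 14 (highest adjusted p = 0.0733) and HELLS without dog 3, 7 or 14 (highest adjusted p = 0.183), and over the differences EZH2 lost it without dog 6, 10 or 14 (highest adjusted p = 0.115).

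The epithelial markers, whose mean was at least 8.99 on every array, ran against the mitosis score, with a median r over 5 tested markers of -0.41 in the carcinomas and -0.61 in the glands, given as a description. The glands of dogs 2, 3, 7 and 14, with the highest mitosis scores, had epithelium scores (mean log2 of 5 tested markers) of 11.12 to 11.55, below the 11.85 to 13.02 of the other 8. Among the carcinomas that of dog 6, highest for mitosis, had the lowest epithelium score (8.99), but that of dog 10, among the highest for mitosis (9.23), had one of the highest (12.85), and that of dog 5, lowest for mitosis, had 12.00. With this score as a covariate, the gland slopes of EZH2 and HELLS were 0.54 and 1.38, against 0.67 and 1.34 without it. Neither was called (limma adjusted p = 0.167 and 0.148). In the carcinomas those of EZH2 and DNMT1 were 0.48 and 0.36, against 0.62 and 0.38. Neither was called (limma adjusted p = 0.0992 and 0.0910), while SUZ12 passed at 0.50, against 0.41 (limma adjusted p = 0.0465). The share of all genes called in these fits was not counted. Whether the lost calls are particular to the members is therefore not known.

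Since score and tissue differ together, the tissue difference was refitted with the mitosis score as a covariate. The estimates became -0.07 for EZH2 (95% interval -0.77 to 0.63), -0.14 for SUZ12 (-0.96 to 0.69), 0.27 for DNMT1 (-0.42 to 0.97), -0.62 for DNMT3A (-1.40 to 0.17) and 0.48 for HELLS (-0.83 to 1.80), none of them called (lowest adjusted p of the 6 members = 0.569). The score correlated at 0.890 with tissue within dogs and the median standard error over all genes rose from 0.198 to 0.409, so that these values are imprecise and do not show that the differences are 0. Over all genes, 9 calls were left. The EED estimate was larger than without the covariate, at 0.58 (-0.08 to 1.25).

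**Figure D4:**
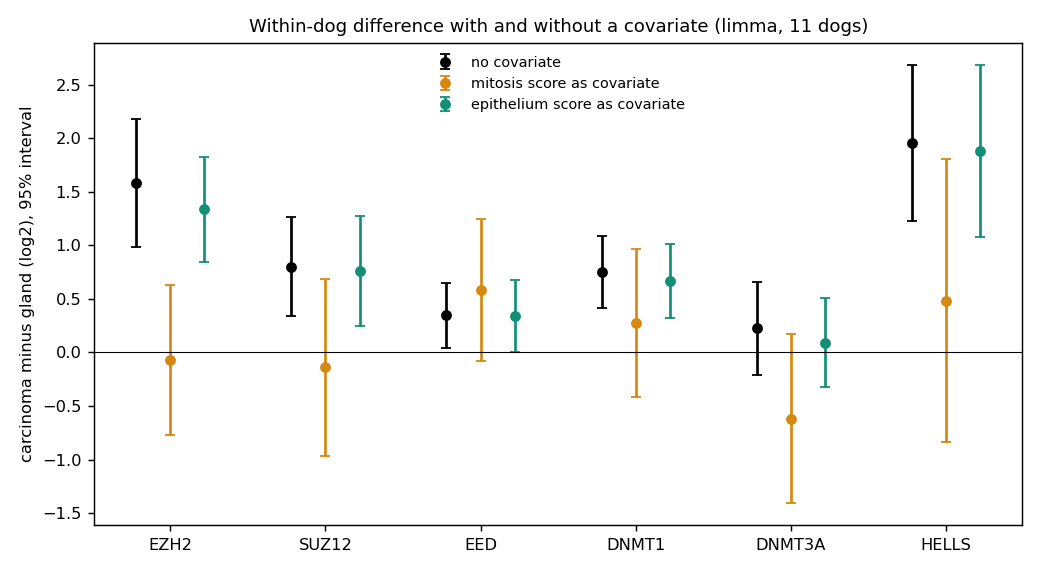
Carcinoma minus gland on the log2 scale (vertical axis) for 6 genes in 11 dogs, as limma estimates with 95% intervals, without a covariate and with the mitosis or the epithelium score. With the mitosis score the EZH2 estimate is -0.07 with an interval from -0.77 to 0.63, and with the epithelium score it is 1.33.

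Markers of other cell types differed between the tissues. Of the tested markers 8 of 9 of skeletal muscle, 3 of 4 of adipocytes, 4 of 4 basal and myoepithelial, 6 of 6 endothelial and 2 of 2 milk genes were lower in the carcinomas. The same held for 1 of 6 fibroblast markers and for BCL6, 1 of 2 tested genes on the B cell list. The mean of that list differed by only -0.09, with 6 of 11 dogs higher. None of 5 epithelial, 3 T cell and 4 macrophage markers was called. The muscle score lay at 8.60 to 11.27 in 6 glands (dogs 7, 10, 11, 12, 13 and 14) and at 3.71 or below on every other array, and the adipocyte score was lower in the carcinoma of 11 of 11 dogs. With the muscle covariate EZH2 (1.63) and DNMT1 (1.01) kept their calls, and SUZ12 (0.63, adjusted p = 0.250) and HELLS (1.95, adjusted p = 0.0516) did not. With the adipocyte covariate, which correlated at -0.942 with tissue, 0 of the 6 members were called, at estimates of 1.74 for EZH2, 1.14 for SUZ12, 1.51 for DNMT1 and 3.16 for HELLS. With the epithelium covariate all 4 calls were kept, at 0.67 to 1.88. Over all genes 449 were called with the muscle, 0 with the adipocyte and 2026 with the epithelium covariate, against 2628 with none. The median standard error over all genes was 0.291, 0.594 and 0.208, against 0.198. The calls lost with muscle and adipocyte are therefore not particular to the members. The part of endothelial, basal and T cell markers in the member differences was not tested.

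Pairs of members were correlated to very different degrees. Across the carcinomas r between 2 members ran from 0.224 for EED with DNMT3A to 0.827 for DNMT1 with HELLS, and across the glands from 0.057 for EZH2 with EED to 0.908 for EZH2 with HELLS. In the glands the catalytic subunit and EED, partners in 1 complex, were thus the least alike of any pair. Over the 11 within-dog differences EED ran against HELLS (r = -0.561), EZH2 (-0.199) and SUZ12 (-0.184), and the highest r was 0.740 for SUZ12 with HELLS. These correlations are descriptions over 13, 12 and 11 values that share arrays.

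The genes most like each member were sought over all 25 arrays after the mean of each tissue was subtracted. EZH2 was most like MCM5, a subunit of the replicative helicase (r = 0.911), CENPU, a centromere protein (0.901), and the mitotic kinase NEK2 (0.899), which is on the mitosis list. HELLS was most like the mitotic motor KIF11 (0.859), CENPF (0.843), both on that list, and ORC1, of the origin recognition complex (0.836). SUZ12 was most like the remodeller CHD1L (0.885), the spindle protein CKAP2 (0.869) and the cohesin acetyltransferase ESCO2 (0.860). DNMT1 had the nuclear lamina protein TMPO (0.796), the centromere protein CENPK (0.796) and the augmin subunit HAUS8 (0.794). The other 2 members had neighbours of other kinds: for EED HPS5 (0.819), a factor of lysosome-related organelles, and the ubiquitin enzymes RNF168 (0.778) and UBE2N (0.771), and for DNMT3A the splicing protein SNRNP40 (0.821), the RNA-binding protein RBM15 (0.796) and the proteasome subunit PSMD14 (0.789).

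Few other Polycomb genes were called, set against 18.4% of all genes called higher and 11.1% lower. Of 7 tested accessory subunits of the complex, counting EZH1, 0 were higher and 1 was lower in the carcinomas: JARID2, which helps to recruit the complex, fell by 1.12 ± 0.93 on the log2 scale (limma adjusted p = 0.00709, lower in 9 of 11 dogs). EZH1, the paralog of EZH2 found in resting cells, differed by -0.52 ± 0.75 and was not called (adjusted p = 0.0977), although lower in 10 of 11 dogs. Of 17 tested subunits of the Polycomb complex 1 only PCGF6 was called, higher by 0.70 ± 0.60 (limma adjusted p = 0.0138). Of 4 tested genes that remove Polycomb marks 0 were called, with KDM6A, a demethylase of the Polycomb mark, at -0.33 ± 0.55 (adjusted p = 0.160). The median differences of these 3 lists were -0.11, 0.28 and 0.14, against 0.10 over all genes.

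Against the same 18.4% and 11.1% of all genes, partners of the DNA methyltransferases were called higher in 4 of 12 cases and lower in 0. Their median difference was 0.32. The largest were PCNA, the replication clamp to which DNMT1 binds, at 1.78 ± 0.74 (limma adjusted p = 0.000218), and CDCA7, the activator of HELLS, at 1.88 ± 1.56 (limma adjusted p = 0.00649). Both correlated with the mitosis score in the carcinomas, PCNA at 0.942 and CDCA7 at 0.725. The deacetylase HDAC2 rose by 0.71 ± 0.43 (limma adjusted p = 0.00231), and the histone methyltransferase SUV39H2, which the naming rule does not cover, was the fourth (0.47, limma adjusted p = 0.0350).

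Of 6 tested genes from families that hold readers of DNA methylation, MBD3 was higher by 0.64 ± 0.37 in 11 of 11 dogs (limma adjusted p = 0.00587). ZBTB4, a zinc finger repressor that binds methylated DNA, was lower (-1.33 ± 0.91, limma adjusted p = 0.00280, lower in 10 of 11 dogs). ZBTB4 ran against the mitosis score, at r = -0.707 in the carcinomas and -0.853 in the glands. Of 4 tested genes of DNA demethylation 0 were called. TDG, a glycosylase that removes oxidised methylcytosine, differed by 0.41 ± 0.49 (adjusted p = 0.0677) and TET2, which oxidises methylcytosine, by -0.43 ± 0.65 (adjusted p = 0.125), whereas all probe sets of TET1 and TET3 stayed below log2 4 on all 25 arrays.

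For scale, 32 of 33 mitosis genes and 31 of 32 DNA replication genes were called higher, with median differences of 3.03 and 1.78. CDK1, the kinase that starts mitosis, rose by 3.27 ± 1.53 and DLGAP5, a spindle protein, by 2.51 ± 1.20 (limma adjusted p = 0.000329 and 0.000382). ORC6 of the origin recognition complex rose by 3.75 ± 1.56 (limma adjusted p = 0.000188).

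Within the carcinomas no member passed the test against survival or tumour size. Over 12 carcinomas limma called 0 genes of 8751 for survival (222 at an unadjusted p under 0.05), and the member slopes lay between -0.05 and 0.04 per month. For size 0 of 8817 genes were called (852 at an unadjusted p under 0.05). EZH2 had a slope of -0.42 per cm (95% interval -0.72 to -0.12, limma p = 0.00960, adjusted p = 0.424), SUZ12 had a slope of -0.24 (adjusted p = 0.527) and DNMT3A of -0.22 (adjusted p = 0.519). With the mitosis score as a covariate the EZH2 slope was -0.10.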

How the data were processed

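The authors deposited 1 normalized log2 value for each of 43035 probe sets on 25 Affymetrix canine arrays; per the submitters' processing notes the tools were Partek, GCRMA and RMA, with no role stated for any, and normalization can compress differences at low values. Array medians ran from 3.56 to 3.77, and 0 pairs of arrays were identical. Precision is set by how many dogs were measured.

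Gene names came from the platform annotation (29703 probe sets, 439 with several symbols and never named). Of its Entrez IDs 27690 were found in a RefSeq table of assembly UU_Cfam_GSD_1.0, which changed 0 symbols. Where a gene had several tested probe sets, the brightest on average over the 25 arrays stood for it. The 111 control probe sets were left out.

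The paired fit used R 4.3.3 and limma 3.58.1, with each dog as a fixed block, a trended prior (eBayes), 2-sided tests and Benjamini-Hochberg adjustment. Slopes took probe sets over log2 4 on 4 arrays or more. Correlations had 100000 permutations, computed in Python 3.11.15 with numpy 2.4.6, and pairs of members an exact sign-flip test over 11 dogs, whose smallest p is 0.000977. The 4 of 8 planned pairs with UHRF1 or DNMT3B were not run. The paired fit and the carcinoma slope fit were run on simulated data. The planted slope was larger than any carcinoma slope of a member. That run therefore does not show whether slopes of the members' size would be found.

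Dog numbers in the labels pair the specimens; with tissue means subtracted, both arrays of a dog correlated at 0.119 to 0.456 against a median of -0.064 between dogs. The members and lists were chosen with earlier results of these data known. Named are all members, of each other list the 2 calls with the smallest p per direction (else the smallest p), the 3 genes most like each member, and EZH1, CDCA7 and TET1 to TET3. Cell type lists are given as scores or counts, and only BCL6 is named from them. Alternatives with a covariate for actin 3' to 5' ratio, or for epithelium in the slopes, the 8 glands and the slope difference between tissues were added after the data were seen. Scanner files, survival of dog 11 and sequences were not used here.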

Additional observations from a re-analysis of the deposited data

How the results depend on the processing

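The 4 calls between the tissues were kept without the dog as a block (4; adjusted p from 0.00185 to 0.0208), with all 25 arrays, with no filter, a stricter filter or a floor at log2 4, with arrays centred or quantile normalized again, with array weights, with probe sets averaged, with the actin 3' to 5' ratio or the epithelium score as covariate, and without any 1 dog (4 to 4). With no filter the count was 5, as UHRF1 was called too, on values near the floor (limma adjusted p = 0.0150). In the dogs whose carcinoma title ends in b the count was 3, without SUZ12. It was 0 with the mitosis score, 0 with the adipocyte score and 2 with the muscle score as covariate. Over all genes there were 9, 0 and 449 calls with these covariates, against 2628 with none. With the mitosis score 3 members changed sign: EZH2 (-0.073), SUZ12 (-0.14) and DNMT3A (-0.62). The number of members with a called slope in the carcinomas, 2 in the report, was 3 with the DNA replication score (SUZ12 added), 1 with centred arrays, 0 with no filter, 1 without trend, 0 with the actin covariate and 1 with the epithelium covariate, and 0 to 2 without 1 carcinoma. In the glands it was 0 in the 8 lowest glands, 0 with the epithelium covariate, and 0 to 2 without 1 gland, and over the differences 0 to 1 without 1 dog. The share of all genes called was not counted in these slope settings, so a lost call is not shown to be particular to the members. With no filter the carcinoma slopes of EZH2 (0.62) and DNMT1 (0.38) were unchanged, at limma adjusted p = 0.0648 and 0.0668. Pairs that differed numbered 2 to 4 without 1 dog. The near-flat gland slope of EED changed sign with the replication score (-0.015), the floor (-0.0047), and the actin (-0.017), muscle (-0.021) and epithelium (-0.22) covariates, and ran from -0.033 to 0.071 without 1 gland. With the mitosis covariate the survival slopes of DNMT1 (0.026) and DNMT3A (0.020), and the size slopes of SUZ12 (0.0071), EED (0.060), DNMT1 (0.22) and HELLS (0.14), changed sign. Without 1 carcinoma survival slopes ran from -0.125 (without dog 13) to -0.014 (without dog 7) for EZH2, -0.017 to 0.070 for SUZ12, -0.054 to 0.025 for EED, -0.061 to 0.017 for DNMT1, -0.053 to 0.016 for DNMT3A and -0.047 to 0.099 for HELLS, and the size slope of EED from -0.078 to 0.016; none of these was called in any setting. Causes were not tested. Signal near the floor limits UHRF1 and DNMT3A.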
